A study of Rattus norvegicus with 6 samples.

Results

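Laminins, integrins and the other proteins that join cells to basement membranes were followed in the injured inferior alveolar nerve (IAN), the branch of the trigeminal nerve that carries sensation from the lower jaw and lip. The members were chosen by gene symbol alone, as all laminin chains, integrin subunits, nidogens, agrin, perlecan and dystroglycan. The rule found 39 genes of the 34106 in the table, and these were 10 laminin chains, 17 integrin alpha subunits, 8 integrin beta subunits, 2 nidogens, agrin and dystroglycan. Lama3, Hspg2 and Itgad were not matched by symbol and are not analysed here under those names.

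Bulk RNA-seq of the excised IAN was compared between 3 samples taken after transection of that nerve (IANX 1 to 3) and 3 samples from rats with a sham operation (Sham 1 to 3), all taken on day 14 after surgery. All were male Sprague–Dawley rats bought at an age of 6 to 7 weeks, and no allele or drug is named for either group. In IANX rats the bone over the nerve was drilled open, the IAN and the mental nerve were cut to leave a short gap, and the stumps were not sutured. For Sham rats the methods name only the incision of the left cheek skin and masseter muscle, so that the opened bone and the cut nerve cannot be told apart. Samples were called biological replicates, and whether a sample pooled several rats is not given in the sources used here.

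Basement membranes are thin sheets of extracellular matrix that surround every Schwann cell and axon unit, every vessel and the base of every epithelium. Laminins are their cell-binding component, each a trimer of 1 alpha, 1 beta and 1 gamma chain, and they assemble with collagen IV, nidogens, agrin and perlecan. Cells hold on to laminin through integrins, which are pairs of 1 alpha and 1 beta subunit, and through dystroglycan, which binds laminin outside the cell and dystrophin-like proteins inside it. In peripheral nerve, laminin-211 (alpha2, beta1, gamma1) lines the Schwann cell, and loss of alpha2 or gamma1 in mice impairs the sorting of axons and their myelination.

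The sequences upstream of the 3 genes that make laminin-211, and of 2 genes that were far higher in IANX, are shown because these are the sets that the results turn on. Each is the stretch of 250 bases before the RefSeq start site on build GRCr8, 5′ to 3′ on the strand of the gene, in lower case. Capitals mark the GC box (GGGCGG, or CCGCCC for the other strand) and, in Lamc1, also the letters GGAATG of a TEAD motif, read there as CATTCC and overlapping a GC box. The Lama2 window lies at chr1:19491896-19492145 on the plus strand, that of Lamb1 at chr6:53562846-53563095 on the plus strand and that of Lamc1 at chr13:68051987-68052236 on the minus strand. The windows of Lamb3 (chr13:107362303-107362552 on the plus strand) and Itgb6 (chr3:65530334-65530583 on the minus strand) hold none of the motifs searched.
Lama2: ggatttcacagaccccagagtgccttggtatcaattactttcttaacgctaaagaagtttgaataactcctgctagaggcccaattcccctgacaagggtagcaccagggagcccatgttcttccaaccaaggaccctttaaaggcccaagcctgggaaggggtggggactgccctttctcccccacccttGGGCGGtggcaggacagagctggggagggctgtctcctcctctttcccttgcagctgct
Lamb1: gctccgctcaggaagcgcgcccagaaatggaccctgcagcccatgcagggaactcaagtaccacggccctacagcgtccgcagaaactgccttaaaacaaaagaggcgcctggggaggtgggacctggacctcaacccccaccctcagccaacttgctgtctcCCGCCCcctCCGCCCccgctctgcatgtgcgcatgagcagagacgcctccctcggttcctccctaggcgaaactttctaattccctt
Lamc1: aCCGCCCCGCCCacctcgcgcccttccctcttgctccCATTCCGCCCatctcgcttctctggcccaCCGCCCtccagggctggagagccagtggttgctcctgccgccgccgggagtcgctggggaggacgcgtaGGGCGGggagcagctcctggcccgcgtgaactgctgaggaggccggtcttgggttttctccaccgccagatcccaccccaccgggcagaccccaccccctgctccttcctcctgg
Lamb3: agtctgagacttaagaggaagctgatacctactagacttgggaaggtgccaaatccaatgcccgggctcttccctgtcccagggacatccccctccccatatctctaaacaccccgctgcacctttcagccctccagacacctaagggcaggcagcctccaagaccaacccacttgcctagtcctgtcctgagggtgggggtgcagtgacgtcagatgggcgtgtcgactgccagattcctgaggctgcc
Itgb6: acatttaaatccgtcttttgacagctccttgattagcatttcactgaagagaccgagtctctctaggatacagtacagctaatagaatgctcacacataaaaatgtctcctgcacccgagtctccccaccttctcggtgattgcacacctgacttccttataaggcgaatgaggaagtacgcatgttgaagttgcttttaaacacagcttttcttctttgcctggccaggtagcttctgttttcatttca

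Promoter windows could be matched for 29 of the 39 members. A GC box on either strand stood in 3 of 3 windows of members that were lower in IANX, in 5 of 11 windows of members that were higher and in 7 of 15 windows of the others, against 30.5% of all 33469 promoters of that length. The Lama2 window held 1 GC box, that of Lamb1 held 2 and that of Lamc1 held 5. The AP-1 motif (TGANTCA), the EGR motif (GCGTGGGCG) and the TATA box (TATAAA) were in none of the 14 windows of members that were called in either direction, the TEAD motif was in 1 and the SOX motif (ACAAAG) in 1. These motifs occur in 6.34%, 0.478%, 12.9%, 12.1% and 16.3% of all promoters, in the order AP-1, EGR, TATA box, TEAD and SOX. The counts describe letters within these windows and are no evidence of binding.

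Total counts were 13988750 to 16440720 per sample in IANX and 14630127 to 17105402 in Sham. Over the 15374 genes with enough reads to be tested, IANX 2 stood apart from the other IANX samples: its Pearson correlations of log2 values were 0.902 and 0.914 with IANX 1 and IANX 3, which correlated at 0.959, while the Sham samples correlated at 0.968 to 0.974. Such a correlation runs over genes, and genes are not replicates of each other. Markers of nerve were held by both groups, and 5 Schwann cell markers summed to 563, 2471 and 948 CPM (TMM-normalized counts, scaled to a library of 1e6 reads) in IANX 1 to 3, against 7199 to 7483 CPM in Sham. The IANX samples also held transcripts of tooth: 8 ameloblast and odontoblast markers, led by Amelx, summed to 55920, 1821 and 60710 CPM in IANX 1 to 3, against 109 to 860 CPM in Sham. Thus IANX 1 and IANX 3 carried far more tooth transcripts than IANX 2, and IANX 2 kept more Schwann cell transcripts. Markers of repair Schwann cells went the other way, with 5 of 6 tested called higher (83.3%, against 17.8% of all tested genes). IANX 2 was the highest IANX sample in 4 of these 5. In the other, Shh, IANX 2 was the lowest, at 1.1 times the highest Sham value, against at least 9.3 times in IANX 1 and IANX 3. The part of tooth tissue in the rise of Shh was not tested.

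Of the 39 members, all of which had enough reads to be tested, 15 were higher in IANX (38.5%) and 8 were lower (20.5%). Among all tested genes, 34.4% were called, with 17.8% higher and 16.6% lower, so that the share of higher members was above the background and the share of lower members was near it. A gene was called at a Benjamini-Hochberg adjusted p under 0.05 in edgeR's quasi-likelihood test, which is two-sided, adjusted over all 15374 genes. The median log2 fold change, IANX over Sham, was 0.56 over the members and 0.08 over all tested genes, where 1 unit is a doubling. Every IANX sample lay above every Sham sample in 15 members (27% of all tested genes) and below in 8 (24.5% of all tested genes), where 51.5% of all tested genes had groups that did not overlap either way. By class, the laminin chains split into 3 higher and 4 lower of 10, and the integrin subunits into 11 higher and 3 lower of 25.

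IANX 2 was compared with the other IANX samples in each called member. It was the lowest IANX sample in 9 of the 15 higher members, against 57.9% of all higher genes, and the IANX sample nearest to Sham in 7 of the 8 lower members, against 60.5% of all lower genes. Without IANX 2, 16 members were higher and 11 lower, and IANX 2 alone against the Sham samples gave 11 higher and 9 lower, with the spread then taken from the Sham samples only. The count of higher members was 8 without Sham 1, 7 without Sham 2 and 7 without Sham 3, and that of lower members was 5 without Sham 2 and 5 without Sham 3.

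**Figure D1:**
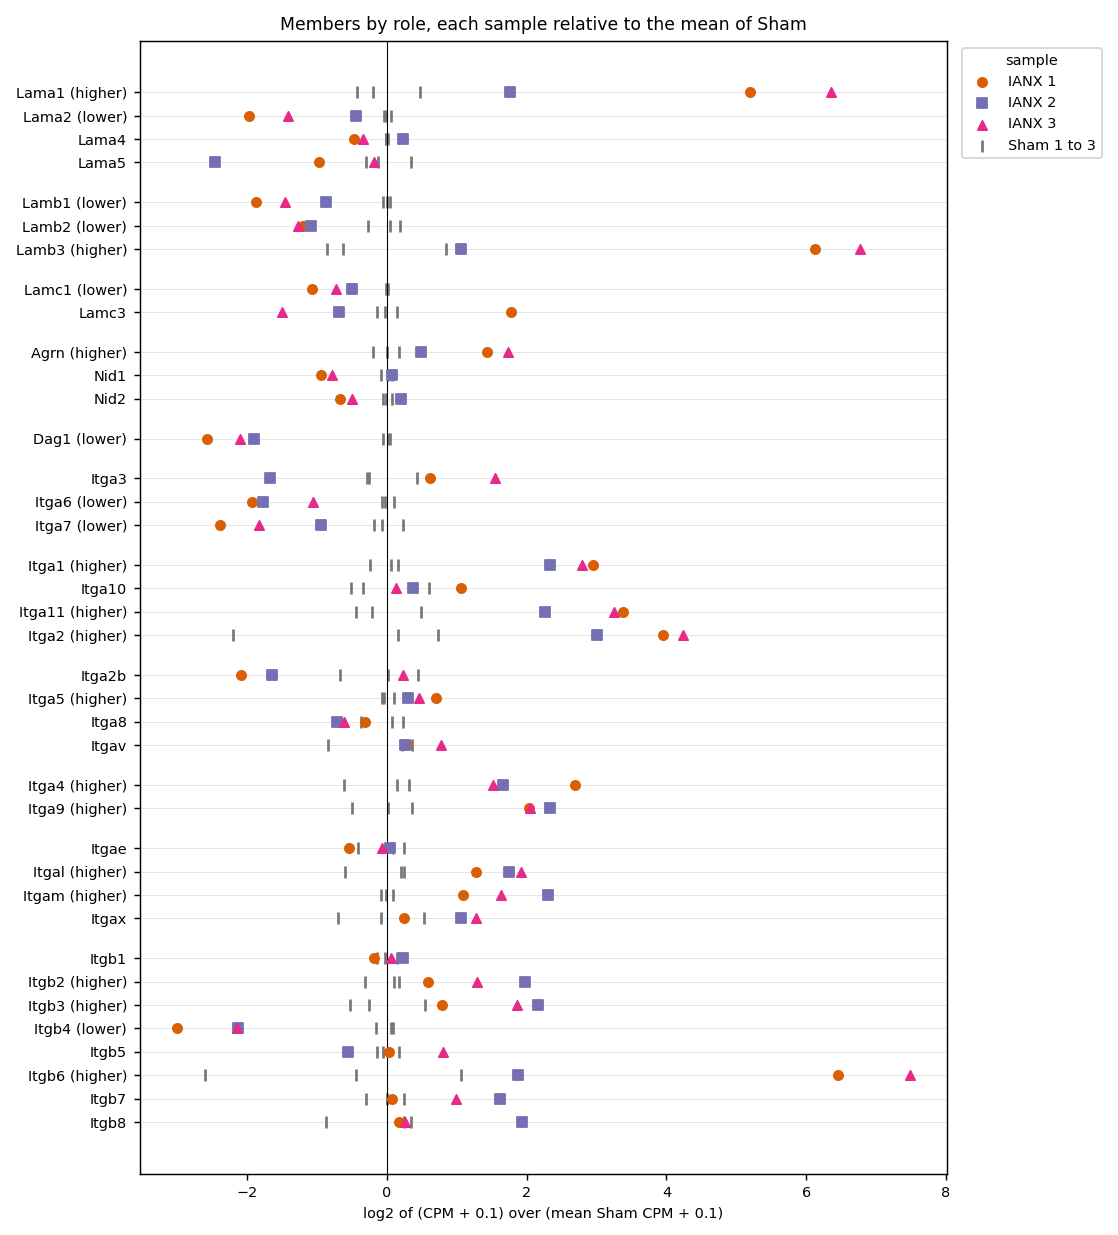
Each of the 38 members shown is a line, grouped by role, and each point is 1 sample, placed by the log2 ratio of its CPM to the mean CPM of Sham, with 0.1 CPM added to both. The IANX samples (circle, square, triangle) all lie right of the Sham bars in the 14 members marked higher and left of them in the 8 marked lower, and in Lama1, Lamb3 and Itgb6 the square of IANX 2 lies close to the Sham bars.

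The chains of laminin-211 fell together. Lama2, the alpha2 chain (chr1:18491384-19143269, rn6), was at 83.4, 243 and 123 CPM in IANX 1 to 3, against 325, 343 and 318 CPM in Sham 1 to 3. All 3 IANX values were below all 3 Sham values, and IANX 2 was the nearest to Sham (log2 fold change -1.13 ± 0.37 (SE), edgeR adjusted p = 0.0479). Lamb1, the beta1 chain (chr6:50528823-50596079), was at 202, 405 and 269.5 CPM in IANX 1 to 3, against 764, 713 and 737 CPM in Sham 1 to 3. Here too the groups did not overlap (log2 fold change -1.34 ± 0.27 (SE), edgeR adjusted p = 0.00996). Lamc1, the gamma1 chain that most laminins share (chr13:70656727-70783515), was at 291, 433 and 369 CPM in IANX 1 to 3, against 618, 608 and 614 CPM in Sham 1 to 3. Its fall was the smallest of the 3 (log2 fold change -0.75 ± 0.20 (SE), edgeR adjusted p = 0.0238). The falls of Lama2 and Lamc1 were near the threshold: without IANX 1, IANX 3, Sham 1, Sham 2 or Sham 3 in turn the edgeR adjusted p was 0.0841, 0.142, 0.112, 0.139 and 0.117 for Lama2 and 0.0657, 0.0729, 0.0713, 0.0768 and 0.0882 for Lamc1. Both also lost their calls with library sizes only. IANX 2 alone against Sham gave smaller log2 fold changes, of -0.43 for Lama2, -0.86 for Lamb1 and -0.49 for Lamc1.

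The beta2 chain, Lamb2 (chr8:117268337-117280517), which replaces beta1 in laminin-221 and in vessel and synaptic laminins, was at 246, 267 and 235 CPM in IANX 1 to 3, against 468, 645 and 584 CPM in Sham 1 to 3. The IANX values spanned 31.7 CPM and the groups did not overlap (log2 fold change -1.18 ± 0.19 (SE), edgeR adjusted p = 0.00412). The calls of Lamb1 and Lamb2 held in all 16 alternatives tried. In a bulk sample, fewer cells of a type and less RNA per cell cannot be told apart, and 10 markers of myelinating Schwann cells summed to 3635, 13300 and 8363 CPM in IANX 1 to 3, against 173200 to 226300 CPM in Sham. The part of this loss in the fall of the laminin chains was not tested.

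Lama4 and Lama5, alpha chains that also pair with beta1 and gamma1, did not pass the test. Lama4, the alpha4 chain of laminin-411 in vessels and nerve, was at 156, 252 and 170.4 CPM across the IANX samples, against 218, 215 and 214 CPM across the Sham samples. IANX 2 lay above the Sham samples and the other IANX samples below them (log2 fold change -0.16 ± 0.21 (SE), edgeR adjusted p = 0.578), and without IANX 2 the log2 fold change was -0.44 with an edgeR adjusted p of 0.0229. Lama5, the alpha5 chain of laminin-511 in epithelial and vessel basement membranes, was at 52.0, 18.4 and 89.4 CPM across the IANX samples, against 82.8, 129 and 93.2 CPM across the Sham samples. It was lowest in IANX 2 (log2 fold change -0.93 ± 0.50 (SE), edgeR adjusted p = 0.183), and IANX 2 alone against Sham gave -2.46 with an edgeR adjusted p of 0.0015. Lamc3, the gamma3 chain, ranged from 1.96 to 19.8 CPM in IANX and from 5.16 to 6.28 CPM in Sham (log2 fold change 0.56, edgeR adjusted p = 0.601), and its sign turned without IANX 1 (-1.06).

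Lamb3, a chain of epithelial basement membranes, went the other way. Lamb3, the beta3 chain (chr13:112031594-112073186), was at 255, 7.52 and 401 CPM in IANX 1 to 3, against 2.28, 6.50 and 1.92 CPM in Sham 1 to 3. IANX 1 and IANX 3 were at least 39.3 times the highest Sham value, whereas IANX 2 was only just above Sham 2 (log2 fold change 5.97 ± 1.34 (SE), edgeR adjusted p = 0.0145). The beta3 chain is best known as part of laminin-332, the laminin of hemidesmosomes under skin, oral mucosa and enamel organ, whose alpha3 chain is not analysed here.

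Lama1, the alpha1 chain known best from the embryo and from a few adult epithelia (chr9:115916907-116042123), was at 15.8, 1.36 and 35.2 CPM in IANX 1 to 3, against 0.276, 0.500 and 0.222 CPM in Sham 1 to 3. The reads behind it were 898 in IANX and 13 in Sham (log2 fold change 5.70 ± 1.18 (SE), edgeR adjusted p = 0.0109). Itgb6 (chr3:46652623-46726958), the beta6 subunit that pairs with alphav in epithelia and activates latent TGF-beta, was at 52.8, 2.12 and 108 CPM in IANX 1 to 3, against 0.345, 1.17 and 0 CPM in Sham 1 to 3. Its reads numbered 2792 in IANX and 19 in Sham, with none in Sham 3 (log2 fold change 6.79 ± 1.54 (SE), edgeR adjusted p = 0.0147). In both genes IANX 1 and IANX 3 were far above every other sample and IANX 2 was at most 2.12 CPM.

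The rise of Lamb3, Lama1 and Itgb6 rested on IANX 1 and IANX 3. IANX 2 alone against Sham gave log2 fold changes of 1.09 for Lamb3, 2.03 for Lama1 and 2.10 for Itgb6, with edgeR adjusted p of 0.251, 0.131 and 0.244. None of the 3 passed without Sham 1, Sham 2 or Sham 3, where the edgeR adjusted p ranged from 0.0575 to 0.0689 for Lamb3, 0.0522 to 0.0554 for Lama1 and 0.0571 to 0.066 for Itgb6. Of 10 epithelial markers 7 were tested and 6 were higher (85.7%, against 17.8% of all tested genes), with IANX 2 the lowest IANX sample in all 6. The sum over all 10 was 1814, 39.4 and 3989 CPM in IANX 1 to 3, against 392 to 477 CPM in Sham. Krt5 and Sfn, 2 of the 6 higher markers, were below or within Sham in IANX 2, and IANX 2 alone gave them log2 fold changes of -2.76 and -0.70 (edgeR adjusted p = 0.0039 and 0.549). Nearly all of the Sham sum was Cdh1, at 372, 447 and 402 CPM in Sham 1 to 3. Cdh1 was the 1 tested marker that was not called, and its highest IANX value was 86% of its lowest Sham value. The Sham sum thus gives the level of 1 gene, and a lower sum in IANX 2 is no measure of less epithelium. Krt14, a keratin of basal epithelium, was at 314, 1.58 and 630.1 CPM in IANX 1 to 3, against 0.829, 1.17 and 0.222 CPM in Sham. The part of epithelial and tooth tissue in the rise of the 3 genes was not tested.

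Partners of laminin-332 at hemidesmosomes, the anchoring junctions of epithelium, were measured in the same samples. Col17a1, the transmembrane collagen that joins integrin alpha6beta4 to laminin-332, was at 159, 3.27 and 239 CPM in IANX 1 to 3, against 1.38, 2.83 and 1.70 CPM in Sham 1 to 3. As in Lamb3, IANX 3 was the highest sample and IANX 2 was close to Sham 2 (log2 fold change 6.09 ± 1.38 (SE), edgeR adjusted p = 0.0146), IANX 2 alone gave 0.74 with an edgeR adjusted p of 0.375, and without Sham 1, Sham 2 or Sham 3 the edgeR adjusted p was 0.065, 0.0698 and 0.0684. Col7a1, the anchoring fibril collagen that laminin-332 binds, was at 89.3, 37.6 and 112 CPM in IANX 1 to 3, against 2.35, 3.17 and 3.54 CPM in Sham 1 to 3. All 3 IANX samples, IANX 2 included, were at least 10.6 times the highest Sham value (log2 fold change 4.72 ± 0.45 (SE), edgeR adjusted p = 0.000724). Plec, the plectin that ties beta4 to the cytoskeleton, was instead lower, at 289 CPM in IANX and 729.9 CPM in Sham (log2 fold change -1.34, edgeR adjusted p = 0.00365), and Dst did not pass (log2 fold change -0.32, edgeR adjusted p = 0.332). As background, inherited changes in human LAMB3, COL17A1 and ITGB6 cause defects of enamel.

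**Figure D2:**
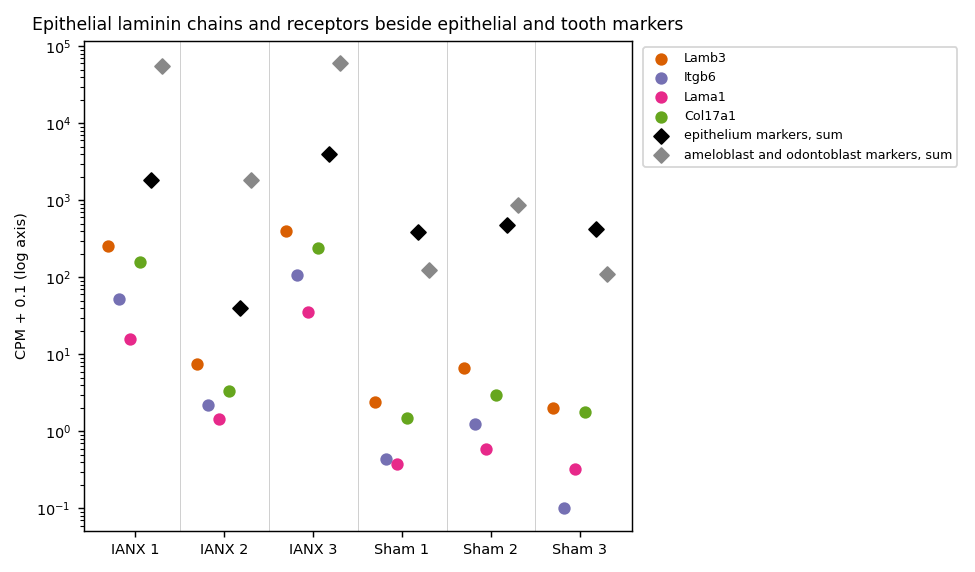
CPM plus 0.1 on a log axis for each of the 6 samples, with circles for Lamb3, Itgb6, Lama1 and Col17a1 and diamonds for the summed epithelial markers (black) and the summed ameloblast and odontoblast markers (grey). All 4 genes are high in IANX 1 and IANX 3 (Lamb3 at 255 and 401 CPM) and low in IANX 2 and Sham (Lamb3 at most 7.52 CPM), and the tooth markers follow the same order.

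CPM depend on gene length, so the make-up of laminin was read from the authors' FPKM, which are scaled per kilobase of gene. Their scaling between samples did not follow the total counts, and shares within a sample do not depend on it. Of the summed FPKM of the 4 measured alpha chains, Lama2 held 27.6 ± 8.07% in IANX and 43.4 ± 0.34% in Sham (SD, n = 3 each), and no IANX sample reached the Sham range. Lama4 held 59.6 ± 4.88% in IANX and 45.4 ± 1.99% in Sham. It was the largest of these 4 chains in each IANX sample, whereas Lama2 and Lama4 were close to each other in Sham. Lama3, the alpha chain that joins Lamb3 in laminin-332, was not among the 4. In IANX 1 and IANX 3, Lamb3 was at 59.85 and 93.91 FPKM and the 4 alpha chains summed to 39.85 and 51.29 FPKM. The largest alpha chain of all in these samples is thus not known. Lama1 held 3.64, 0.185 and 6.3% in IANX 1 to 3, against 0.027 to 0.0565% in Sham. These are shares, and a share can grow because another chain is lower.

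Among the beta chains, Lamb3 held 44.3, 1.53 and 52.5% in IANX 1 to 3, against 0.256, 0.661 and 0.202% in Sham 1 to 3. It was the largest beta chain in IANX 1 and IANX 3 and close to absent in IANX 2, where Lamb1 held 60.4%, within the 53.3 to 62.9% of Sham.

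**Figure D3:**
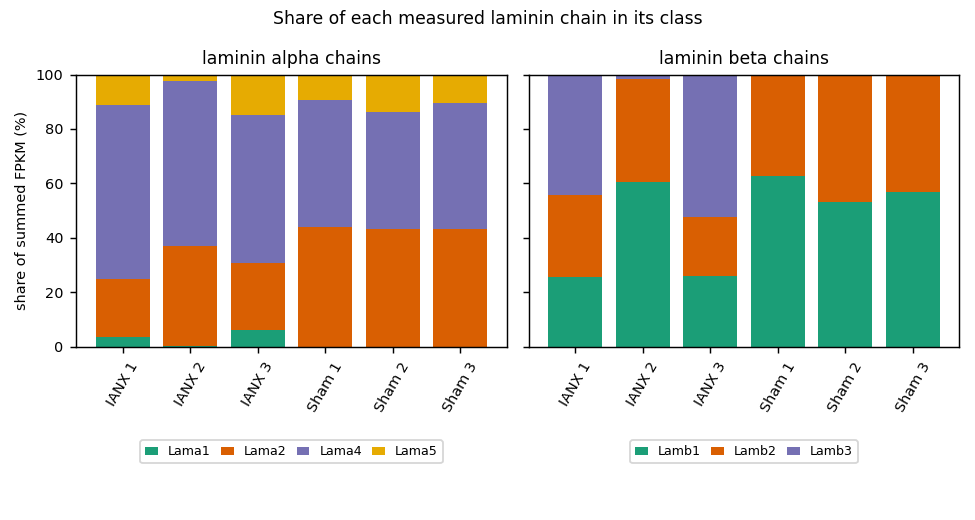
Stacked bars give the percentage of the summed FPKM of the measured alpha and beta laminin chains held by each chain in each of the 6 samples. Lamb3 makes up 44.3% of the beta chains in IANX 1 and 52.5% in IANX 3, and at most 1.53% in IANX 2 and Sham.

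Nidogens cross-link laminin to collagen IV. Nid1 was at 458, 933 and 510.5 CPM across the IANX samples, against 928, 832 and 889 CPM across the Sham samples, and Nid2 at 94.7, 174 and 106 CPM across the IANX samples, against 145, 158 and 149 CPM across the Sham samples. Neither passed the test (Nid1 log2 fold change -0.48, edgeR adjusted p = 0.24, Nid2 log2 fold change -0.27, edgeR adjusted p = 0.413), and in both IANX 2 lay above all Sham samples while IANX 1 and IANX 3 lay below them. Without IANX 2, both fell, with log2 fold changes of -0.90 for Nid1 and -0.62 for Nid2 and edgeR adjusted p of 0.00292 and 0.00656.

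Agrin, a heparan sulfate proteoglycan that binds laminin and dystroglycan and gathers acetylcholine receptors at the nerve–muscle synapse, rose. Agrn (chr5:173589819-173622645) was at 231, 119.9 and 283 CPM in IANX 1 to 3, against 74.7, 85.5 and 96.4 CPM in Sham 1 to 3. IANX 2 was the lowest of the IANX samples but above each Sham sample (log2 fold change 1.31 ± 0.31 (SE), edgeR adjusted p = 0.0168). Agrn lost its call without Sham 1, Sham 2 or Sham 3 (edgeR adjusted p 0.07, 0.0766 and 0.0589). Most of its rise came from IANX 1 and IANX 3: the log2 fold change was 1.55 without IANX 2 (edgeR adjusted p = 0.000374) and 0.50 for IANX 2 alone. For perlecan, RefSeq gives AABR07073181.1 as an older name of Hspg2. The row of that name, which the symbol rule does not include, was at 153, 103 and 146 CPM across the IANX samples, against 154, 91.9 and 139 CPM across the Sham samples, and it did not pass (log2 fold change 0.06, edgeR adjusted p = 0.862).

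Dystroglycan had the highest level per length of all members in Sham and was far lower in IANX. Dag1 (chr8:116980497-116993193) encodes both chains of the receptor that in Schwann cells binds laminin-211 and agrin, and it was at 249, 399.5 and 346 CPM in IANX 1 to 3, against 1505, 1527 and 1425 CPM in Sham 1 to 3. The highest IANX value was 28% of the lowest Sham value (log2 fold change -2.16 ± 0.23 (SE), edgeR adjusted p = 0.00114). The call held in all 16 alternatives, IANX 2 alone included (-1.89, edgeR adjusted p = 0.000464).

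The partners of dystroglycan were mostly lower too. Of 15 tested genes for the dystrophin-like, sarcoglycan and syntrophin partners, 8 were lower and 2 higher. The shares were 53.3% and 13.3%, against 16.6% and 17.8% of all tested genes. Prx, the periaxin that links Drp2 to the plasma membrane of myelinating Schwann cells, was at 172, 582 and 411 CPM in IANX 1 to 3, against 9252, 9169 and 8886 CPM in Sham 1 to 3 (log2 fold change -4.55, edgeR adjusted p = 0.00119). Drp2, which with Prx and dystroglycan forms the patches where the myelin sheath touches the Schwann cell surface, was at 80.1, 440.2 and 161 CPM in IANX 1 to 3, against 3689, 2839 and 3550.0 CPM in Sham 1 to 3 (log2 fold change -3.89, edgeR adjusted p = 0.00464). Both are also in the list of myelinating Schwann cell markers. The syntrophin Sntb1 had a log2 fold change of -2.27 (edgeR adjusted p = 0.00199). Dmd, Utrn, Sgcb and Sgce were also lower, and Dtnb was higher. Sgce and Dtnb lost their calls without any 1 sample other than IANX 2 (edgeR adjusted p 0.08 to 0.114 and 0.0807 to 0.152).

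Dystroglycan binds laminin only when it carries a sugar chain built by a row of glycosyltransferases. Of 12 tested genes for these enzymes, 5 were lower (41.7%) and none higher at the threshold, against 16.6% and 17.8% of all tested genes. Pomgnt1 was at 73.9, 114 and 75.6 CPM across the IANX samples, against 187, 234 and 244 CPM across the Sham samples (log2 fold change -1.33, edgeR adjusted p = 0.00497). Pomk was at 44.0 CPM in IANX and 79.2 CPM in Sham and Pomt2 at 36.1 CPM in IANX and 54.2 CPM in Sham, with log2 fold changes of -0.85 and -0.58 and edgeR adjusted p of 0.00833 and 0.0328. Pomt2 lost its call without IANX 3, Sham 1, Sham 2 or Sham 3 (edgeR adjusted p 0.0552 to 0.108). The enzyme Large, which adds the laminin-binding repeat, was at 51.9 CPM in IANX and 58.1 CPM in Sham and did not pass (log2 fold change -0.16, edgeR adjusted p = 0.393). Its paralog Gyltl1b was at 15.7, 1.47 and 20.6 CPM in IANX 1 to 3, against 1.66, 1.33 and 3.17 CPM in Sham 1 to 3. It just missed the threshold (log2 fold change 2.61, edgeR adjusted p = 0.0522), and it passed without IANX 2 (3.10, edgeR adjusted p = 0.000794) and with DESeq2 (2.56, adjusted p = 0.00341).

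Both subunits of the laminin receptor alpha6beta4 fell. Itgb4 (chr10:104523996-104561078), which pairs only with alpha6 and marks the outer surface of myelinating Schwann cells and the base of epithelia, was at 228, 422 and 417 CPM in IANX 1 to 3, against 1913, 1954 and 1651 CPM in Sham 1 to 3. The highest IANX value was 25.5% of the lowest Sham value (log2 fold change -2.37 ± 0.29 (SE), edgeR adjusted p = 0.00173), and Itgb4 was called lower in all 16 alternatives. Its 3′ part overlaps 776 bases of Galk1 on the other strand, which held between 211 and 559 reads per sample. Itga6 (chr3:58443101-58515124), the alpha6 subunit, was at 253, 282 and 464 CPM in IANX 1 to 3, against 1036, 916 and 943 CPM in Sham 1 to 3. IANX 3 was the highest IANX sample and was 50.6% of the lowest Sham value (log2 fold change -1.54 ± 0.27 (SE), edgeR adjusted p = 0.00581).

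Itga7 (chr7:3355116-3384675), the alpha7 subunit of a laminin receptor of muscle and Schwann cells, was at 49.6, 136 and 73.2 CPM in IANX 1 to 3, against 228, 305 and 247 CPM in Sham 1 to 3. IANX 2 was nearest to Sham (log2 fold change -1.60 ± 0.36 (SE), edgeR adjusted p = 0.0145), and the call was lost without IANX 3, Sham 2 or Sham 3 (edgeR adjusted p 0.0533, 0.0661 and 0.0514). Itga3, the alpha3 subunit of the laminin-332 and laminin-511 receptor of epithelia, was at 32.8, 6.65 and 62.7 CPM across the IANX samples, against 17.5, 28.7 and 17.8 CPM across the Sham samples. The IANX samples lay on both sides of Sham (log2 fold change 0.67 ± 0.67 (SE), edgeR adjusted p = 0.462). Without IANX 2 it was higher (log2 fold change 1.13, edgeR adjusted p = 0.0262), and IANX 2 alone against Sham was lower (-1.67, edgeR adjusted p = 0.018). Itgb1, the beta1 subunit shared by alpha3, alpha6, alpha7 and the collagen receptors, was at 464, 618 and 550.0 CPM across the IANX samples, against 581, 479 and 516 CPM across the Sham samples. The groups overlapped and the mean was nearly the same (log2 fold change 0.05 ± 0.19 (SE), edgeR adjusted p = 0.858).

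Collagen-binding alpha subunits rose in 3 of 4 cases. Itga1 (chr2:47127219-47281421), a receptor for collagen IV and laminin, was at 17.6, 11.4 and 15.7 CPM in IANX 1 to 3, against 2.28, 1.83 and 2.44 CPM in Sham 1 to 3. The IANX samples were close to each other (log2 fold change 2.77 ± 0.28 (SE), edgeR adjusted p = 0.000901). Itga11 (chr8:67615635-67683973), a receptor for fibrillar collagen on fibroblasts, was at 47.5, 21.8 and 43.0 CPM in IANX 1 to 3, against 6.28, 3.83 and 3.25 CPM in Sham 1 to 3. The lowest IANX value was 3.48 times the highest Sham value (log2 fold change 3.07 ± 0.39 (SE), edgeR adjusted p = 0.00185). Both held in all 16 alternatives, and IANX 2 alone gave log2 fold changes of 2.39 for Itga1 and 2.30 for Itga11.

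Itga2, which lies 30257 bases from Itga1 on chromosome 2 and encodes the alpha2 subunit of a collagen receptor of platelets and epithelia, was at 7.02, 3.6 and 8.59 CPM across the IANX samples, against 0.414, 0 and 0.665 CPM across the Sham samples. It was low everywhere, with 335 reads in IANX and 15 in Sham (log2 fold change 4.09 ± 0.81 (SE), edgeR adjusted p = 0.00925), and it held in the 14 alternatives in which it could be tested. Itga10, the alpha10 subunit known best from cartilage, was at 44.0, 27.4 and 23.1 CPM across the IANX samples, against 31.9, 14.7 and 16.5 CPM across the Sham samples and did not pass (log2 fold change 0.58, edgeR adjusted p = 0.248). All 4 pair with Itgb1, whose level hardly differed. Of 7 tested collagens of basement membranes, 3 were lower (42.9%) and 1 higher (14.3%), against 16.6% and 17.8% of all tested genes. Col4a1 and Col4a2, the chains of the common collagen IV, were at 515 CPM in IANX and 1329 CPM in Sham and at 227 CPM in IANX and 441 CPM in Sham (log2 fold change -1.37 and -0.96, edgeR adjusted p = 0.00431 and 0.0179), and Col4a4 was the third (log2 fold change -1.10, edgeR adjusted p = 0.0168). Col4a2 lost its call without Sham 1 or Sham 3 (edgeR adjusted p 0.0625 and 0.0601) and Col4a4 without Sham 1 or Sham 2 (0.0619 and 0.0542).

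The subunits that bind fibronectin, VCAM-1 and tenascin through alpha4 and alpha9 also rose. Itga4 (chr3:66193059-66263960), carried by leukocytes and some neural crest cells, was at 20.7, 10.1 and 9.13 CPM in IANX 1 to 3, against 3.45, 2.0 and 3.91 CPM in Sham 1 to 3. IANX 1 was the highest (log2 fold change 2.09 ± 0.42 (SE), edgeR adjusted p = 0.0102). Itga9 (chr8:127271289-127572988), a receptor for tenascin-C, was at 7.70, 9.53 and 7.76 CPM in IANX 1 to 3, against 2.35, 1.83 and 1.25 CPM in Sham 1 to 3. Its IANX values spanned 1.84 CPM (log2 fold change 2.19 ± 0.33 (SE), edgeR adjusted p = 0.0035). Both calls held in all 16 alternatives. Itgb7, a beta partner of Itga4, was at 6.03 CPM in IANX and 2.90 CPM in Sham and did not pass (log2 fold change 1.05, edgeR adjusted p = 0.101), although it did without IANX 1 (1.37, edgeR adjusted p = 0.0387).

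Among the subunits that bind the RGD peptide of ligands such as fibronectin and vitronectin, Itga5 and Itgb3 were called higher, beside Itgb6 given above. Itga5 (chr7:144970444-144993652), the fibronectin receptor, was at 48.8, 36.9 and 41.2 CPM in IANX 1 to 3, against 28.6, 32.3 and 29.1 CPM in Sham 1 to 3. The groups did not overlap but the change was small (log2 fold change 0.50 ± 0.16 (SE), edgeR adjusted p = 0.0482), and it was called in only 2 of the 16 alternatives. Itgb3 (chr10:92667869-92783410), found on platelets, osteoclasts and vessels, was at 7.81, 20.4 and 16.6 CPM in IANX 1 to 3, against 6.63, 3.08 and 3.77 CPM in Sham 1 to 3. IANX 2 was the highest (log2 fold change 1.73 ± 0.44 (SE), edgeR adjusted p = 0.0225), and the call was lost without IANX 3, Sham 2 or Sham 3 (edgeR adjusted p 0.0627, 0.0959 and 0.0935). Of its alpha partners, Itgav was at 52.8 CPM in IANX and 38.3 CPM in Sham (log2 fold change 0.46, edgeR adjusted p = 0.288) and Itga2b, the platelet subunit, at 6.94 CPM in IANX and 12.1 CPM in Sham (log2 fold change -0.80, edgeR adjusted p = 0.348). Itga2b passed as lower without IANX 3 (-1.88, edgeR adjusted p = 0.0289). The 6 osteoclast markers summed to 383, 1266 and 649 CPM in IANX 1 to 3, against 133 to 387 CPM in Sham, and thus IANX 2 was highest there too. Their part in the rise of Itgb3 was not tested.

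Itgb8 and Itgb5, partners of alphav beside Itgb3 and Itgb6, differed between samples more than between groups. Itgb8, which like beta6 activates TGF-beta, was at 67.2, 229 and 71.1 CPM across the IANX samples, against 70.6, 32.7 and 75.8 CPM across the Sham samples. IANX 2 was 3.02 times the next highest sample (log2 fold change 1.04 ± 0.54 (SE), edgeR adjusted p = 0.169), and IANX 2 alone gave a log2 fold change of 1.95 (edgeR adjusted p = 0.00884). Itgb5 was at 112, 74.3 and 192 CPM across the IANX samples, against 124, 99.8 and 105 CPM across the Sham samples, with IANX 3 above and IANX 2 below Sham (log2 fold change 0.20 ± 0.32 (SE), edgeR adjusted p = 0.654). Itga8, which pairs with beta1, was at 11.8 CPM in IANX and 17.2 CPM in Sham and did not pass (log2 fold change -0.54, edgeR adjusted p = 0.107).

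Of the leukocyte integrins Itgb2, Itgam and Itgal rose, all at low levels. Itgb2, the beta2 subunit common to this family, was at 11.4, 30.1 and 18.6 CPM in IANX 1 to 3, against 8.08, 6.08 and 8.49 CPM in Sham 1 to 3. Its highest value was in IANX 2 (log2 fold change 1.40 ± 0.37 (SE), edgeR adjusted p = 0.024), and the call was lost without IANX 3, Sham 1, Sham 2 or Sham 3 (edgeR adjusted p 0.0544, 0.0736, 0.105 and 0.0761). Itgam, the alphaM subunit of the complement receptor of macrophages and neutrophils, was at 9.73, 22.8 and 14.3 CPM in IANX 1 to 3, against 4.49, 4.83 and 4.28 CPM in Sham 1 to 3, likewise highest in IANX 2 (log2 fold change 1.78 ± 0.34 (SE), edgeR adjusted p = 0.00833). Itgal, the alphaL subunit found on all leukocytes, was at 9.39, 13.1 and 14.8 CPM in IANX 1 to 3, against 4.42, 2.50 and 4.58 CPM in Sham 1 to 3 (log2 fold change 1.69 ± 0.33 (SE), edgeR adjusted p = 0.00857).

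Itgax, the alphaX subunit, was at 7.47, 13.2 and 15.4 CPM across the IANX samples, against 5.94, 3.83 and 9.16 CPM across the Sham samples and did not pass (log2 fold change 0.93, edgeR adjusted p = 0.11). Its gene model lies within that of Itgam over 21211 bases on the same strand, so that the split of reads between the pair is uncertain. Itgae, whose model overlaps several other genes, was at 11.4 CPM in IANX and 12.9 CPM in Sham (log2 fold change -0.17, edgeR adjusted p = 0.654). In the same samples the sum over 10 macrophage markers was 407, 928 and 364 CPM in IANX 1 to 3, against 220 to 255 CPM in Sham. Of these 10 markers 4 were called higher (40%, against 17.8% of all tested genes), and IANX 2 was the highest IANX sample in all 4. None of 6 neutrophil markers was called in either direction, against 34.4% of all tested genes. The 7 T and NK cell markers summed to 8.26, 23.8 and 11.6 CPM in IANX 1 to 3, against 5.16 to 7.87 CPM in Sham. Of these 7 markers 3 were called higher (42.9%, against 17.8% of all tested genes), and IANX 2 had the highest sum, as for the macrophage markers. The part of leukocyte number in these rises was not tested.

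Ordered by level per length, the leading members were not the same in both groups. Dag1 (62.9 ± 15.4 FPKM in IANX and 289.5 ± 12 FPKM in Sham), Itgb4 (51.6 ± 16.4 FPKM in IANX and 274 ± 25.8 FPKM in Sham) and Itga6 (54.7 ± 18.3 FPKM in IANX and 163 ± 10.2 FPKM in Sham; SD, n = 3 each) led in Sham and were lower in IANX. In Sham the order held a clear step after Itgb4 (110.5 FPKM to Itga6), and Dag1 and Itgb4, and likewise the run from Itga6 over Nid1 and Itgb1 to Lamb1, differed from neighbour to neighbour by less than the larger SD. In IANX the first places went to Itgb1 (146 ± 23.2 FPKM in IANX and 145 ± 13.7 FPKM in Sham) and Nid1 (109.7 ± 47.4 FPKM in IANX and 156 ± 7.79 FPKM in Sham). Lamb3 came just after Itga6 in IANX with 51.9 ± 46.6 FPKM in IANX and 0.872 ± 0.628 FPKM in Sham, a place that rests on IANX 1 and IANX 3. Down to the 12th place in IANX, each member differed from the next by less than the larger SD of the pair.

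**Figure D4:**
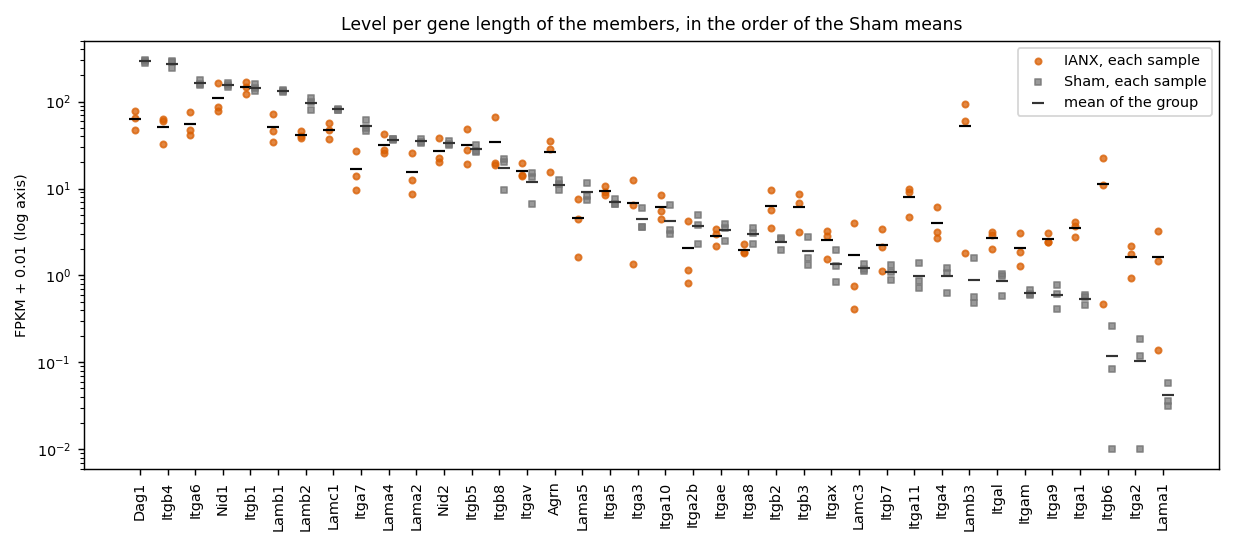
FPKM plus 0.01 on a log axis for each of the 38 members shown, in the order of the Sham means, with orange circles for the IANX samples, grey squares for the Sham samples and a dash for the mean of each group. Dag1, Itgb4 and Itga6, at the left, are lower in all 3 IANX samples, Itgb1 stays at 146 FPKM in IANX and 145 FPKM in Sham, and Lamb3 spreads over more than 10-fold among the IANX samples.

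Proteins that decorate basement membranes rose more often than they fell, with 8 higher and 2 lower of 15 tested. That is 53.3% and 13.3%, against 17.8% and 16.6% of all tested genes. Fras1, which anchors epithelium to the underlying matrix, was at 49.6, 0.981 and 96.4 CPM in IANX 1 to 3, against 0.345, 0.333 and 0.369 CPM in Sham 1 to 3 (log2 fold change 7.10, edgeR adjusted p = 0.0134). Frem2, its partner, was at 62.0, 0.763 and 95.4 CPM across the IANX samples, against 3.11, 2.08 and 2.21 CPM across the Sham samples (log2 fold change 4.41, edgeR adjusted p = 0.0374), and both were at most 0.981 CPM in IANX 2, below Sham in the case of Frem2. Papln followed the same order, at 169.5, 11.1 and 283 CPM across the IANX samples, against 6.70, 8.66 and 7.46 CPM across the Sham samples (log2 fold change 4.34, edgeR adjusted p = 0.0155). Npnt, the nephronectin that binds integrin alpha8, was at 29.5, 10.2 and 45.8 CPM across the IANX samples, against 1.79, 0.916 and 1.18 CPM across the Sham samples and was higher in IANX 2 as well (log2 fold change 4.44, edgeR adjusted p = 0.00248). IANX 2 was the lowest IANX sample in 7 of the 8 higher genes, against 57.9% of all higher genes. The lower ones were Egflam (log2 fold change -1.11, edgeR adjusted p = 0.0145), the pikachurin that binds dystroglycan, and Tinagl1 (log2 fold change -1.54, edgeR adjusted p = 0.00696). Fras1, Papln and Egflam lost their calls without Sham 1, Sham 2 or Sham 3 (edgeR adjusted p 0.0602 to 0.0727, 0.0669 to 0.0764 and 0.0511 to 0.058), and Frem2 without any 1 sample other than IANX 2 (0.0603 to 0.142).

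Laminin receptors that are not integrins gave 2 higher and 3 lower of 9. The shares were 22.2% and 33.3%, against 17.8% and 16.6% of all tested genes, and with 9 genes they are coarse. Adgrg6, the adhesion receptor of Schwann cells that laminin-211 and collagen IV bind and that starts myelination in mice and zebrafish, was at 33.7, 72.8 and 54.4 CPM in IANX 1 to 3, against 179.6, 144 and 164 CPM in Sham 1 to 3 (log2 fold change -1.60, edgeR adjusted p = 0.00581). The syndecans Sdc1 and Sdc2 were higher and Sdc4 lower, with log2 fold changes of 3.74, 1.23 and -0.83 and edgeR adjusted p of 0.0027, 0.00614 and 0.0169. Sdc1, a syndecan of epithelia and plasma cells, was at 245, 64.4 and 263 CPM in IANX 1 to 3, against 15.6, 12 and 15.1 CPM in Sham 1 to 3. Sdc4 lost its call without IANX 3, Sham 2 or Sham 3 (edgeR adjusted p 0.0523 to 0.0706).

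**Figure D5:**
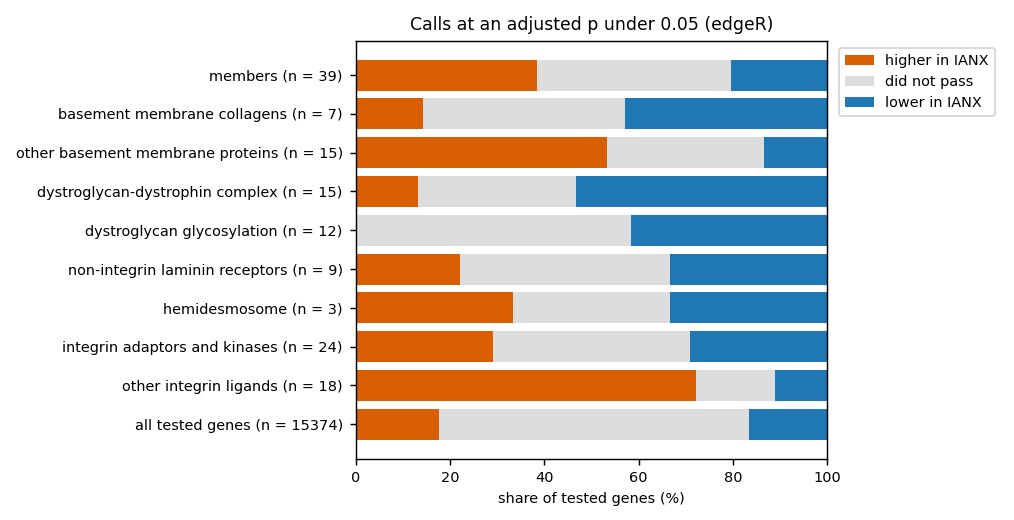
Bars give the percentage of tested genes called higher (orange), not called (grey) and called lower (blue) at an edgeR adjusted p under 0.05, for the 39 members, 8 related lists and all 15374 tested genes. Of the members 38.5% are higher and 20.5% lower, and of the dystroglycan–dystrophin list 13.3% and 53.3%, against 17.8% and 16.6% of all tested genes.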

How the data were processed

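The authors made poly-A libraries, aligned paired reads with HISAT2 2.0.5 to rn6, assembled further transcripts with StringTie 1.3.3b and deposited raw counts per gene from featureCounts 1.5.0-p3 (tools per the labels). FPKM are the authors' values per kilobase of gene, and their scaling between samples did not follow the total counts. Itgb1 had 8194 reads and 123.1 FPKM in IANX 1, against 8416 reads and 160.1 FPKM in Sham 1. The total counts of these samples were 15043895 and 17105402. The deposited log2 fold changes, p-values and group means (a signal scaled by size factors) from the authors' DESeq2 1.20.0 comparison were not read. The annotation release, strand setting and treatment of multiply aligned reads are not given in the sources used here, and the kit does not mark strand, so that reads from opposite strands cannot be told apart.

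Counts were filtered with filterByExpr, TMM-normalized and tested with edgeR 4.0.16 (R 4.3.3), condition only, two-sided, Benjamini-Hochberg over 15374 genes, threshold 0.05. The SE is the size of the log2 fold change over the square root of F. Each p-value sets the difference between the groups against the spread between these samples. The methods were tested on simulated data in which every sample of a group shared the same mean level per gene. A sample apart from its group, as IANX 2 was, is therefore not covered by that test. Values in every sample are given for called members with a mean of at least 5 CPM and their partner chains, and up to 4 called genes of each related list are named by size of change, except that 1 member and some list genes are counted but not reported by name here. Itga2, Nid1, Nid2, Lamc3, Itga8, Itga10, Itgae, Itgb5, Itgb8, Dst, Large, Gyltl1b, Egflam, Tinagl1, Krt5, Sfn, Shh, the other list genes beyond 4, and the perlecan row, found through the RefSeq synonym AABR07073181.1, were named after their values were seen. Members and lists were chosen with earlier results of these data known. The GC box and TATA box were added after the data were seen. Alternatives were DESeq2 1.42.0, RLE or library-size scaling, no filter, Ensembl genes only, each sample left out, IANX 2 alone, a replicate block and limma 3.58.1 on log2(FPKM + 1) or log2(FPKM + 0.1), either unfiltered or for genes that reached 1 FPKM in 3 samples. Sequences are from RefSeq, build GRCr8, and are unrelated in coordinates to rn6.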

Additional observations from a re-analysis of the deposited data

How the results depend on the processing

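Dag1, Itgb4, Itga6, Lamb1, Lamb2, Itga1, Itga11, Itga4, Itga9 and Itgal kept their calls under all 16 alternatives, and Itga2 under the 14 in which it was tested. The number of higher members was 15, and it moved to 7 to 16 as each sample was left out, to 9 with the replicate block and to 6 with limma on unfiltered log2(FPKM + 1). It was 8, 7 and 7 without Sham 1, Sham 2 and Sham 3. The number of lower members was 8, and 5 to 11 as each sample was left out, with 5 each without Sham 2 and Sham 3. Over all genes, the 2734 higher calls became 961 to 3712 as each sample was left out (1713 without IANX 3, 1554, 1029 and 961 without Sham 1, 2 and 3), and the 2550 lower calls 1494 to 3504 (1571 and 1494 without Sham 2 and Sham 3). Limma on unfiltered log2(FPKM + 1) gave 1609 higher calls. With library sizes only, 5919 genes were higher and 1468 lower, or 80.1% of calls higher against 51.7% with TMM, and the median over all genes was a log2 fold change of 0.534 against 0.0825, so that directions of small changes are relative to TMM.

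Among the members and the named list genes, signs turned in genes that did not pass, and, for IANX 2 alone, in the called genes Frem2 (-1.68), Krt5 (-2.76) and Sfn (-0.70). With library sizes only they turned in Itgae (0.28), Lama4 (0.28), Nid2 (0.17), Dst (0.14) and Large (0.29). For IANX 2 alone they turned in Itga3 (-1.67), Itgae (0.0573), Itgb5 (-0.55), Lama4 (0.24), Lamc3 (-0.70), Nid1 (0.0885), Nid2 (0.22), Gyltl1b (-0.48) and AABR07073181.1 (-0.30). With 1 sample left out they turned in Itga3 (-0.13 to 1.13, lowest without IANX 3), Itgb1 (-0.089 without IANX 2 and -0.0292 without Sham 2, up to 0.15), Itgb5 (-0.24 to 0.43, lowest without IANX 3), Lamc3 (-1.06 to 1.02, lowest without IANX 1) and AABR07073181.1 (-0.0486 without IANX 1, -0.007 without IANX 3 and -0.15 without Sham 2, up to 0.20), and Lamc3 was -0.12 with the replicate block and -0.12 with limma on log2(FPKM + 0.1). The cause was not tested. Samples with the same number hardly deviated together (correlations of deviations 0.0858, -0.0144 and 0.0753). IANX 1 and IANX 3 correlated best with the Sham sample of the same number, and IANX 2 with Sham 3. Such correlations cannot settle the design, and the sources used here name no pairing, so the replicate block is not a pairing by design. With the block 2175 genes were higher and 2299 lower, and Itga5, Itgb2, Itgb3, Itgb6 and Lamb3 were among the members that lost a call. With 3 samples per group, small changes and members near 1 CPM are the least certain.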

Other observations

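The cytoplasmic partners of integrins were split, with 7 higher and 7 lower of 24 tested. Each share was 29.2%, against 17.8% higher and 16.6% lower of all tested genes. Lims2, a PINCH adaptor of integrin-linked kinase, was at 13.4, 65.9 and 24.7 CPM in IANX 1 to 3, against 546, 825 and 647 CPM in Sham 1 to 3 and fell the most (log2 fold change -4.28, edgeR adjusted p = 0.00277). Lims1, the other PINCH adaptor, was instead higher, at 26.9, 32.4 and 31.7 CPM in IANX 1 to 3, against 18.4, 9.16 and 15.8 CPM in Sham 1 to 3 (log2 fold change 1.07, edgeR adjusted p = 0.0205). Tns1, a tensin that binds beta1 tails, was at 50.2, 49.8 and 43.8 CPM across the IANX samples, against 187, 91.0 and 164 CPM across the Sham samples (log2 fold change -1.62, edgeR adjusted p = 0.0049). Fermt1, the kindlin of epithelia, was at 45.6, 2.89 and 47.0 CPM in IANX 1 to 3, against 0.829, 2.08 and 0.222 CPM in Sham 1 to 3, so that IANX 2 was near Sham (log2 fold change 4.95, edgeR adjusted p = 0.0155), IANX 2 alone gave 1.49 with an edgeR adjusted p of 0.277, and without Sham 1, Sham 2 or Sham 3 the edgeR adjusted p was 0.0674, 0.0513 and 0.064. The other kindlins differed in direction: Fermt2, the broadly expressed one, was lower (log2 fold change -0.75, edgeR adjusted p = 0.0207) and Fermt3, the one of blood cells, higher (log2 fold change 1.12, edgeR adjusted p = 0.0173). Parvb was at 162, 37.3 and 169 CPM across the IANX samples, against 28.9, 39.3 and 32 CPM across the Sham samples (log2 fold change 1.88, edgeR adjusted p = 0.0281), with IANX 2 within the Sham range. Parvb and Fermt2 lost their calls without any 1 sample other than IANX 2 (edgeR adjusted p 0.0624 to 0.1 and 0.0617 to 0.0775), and Fermt3 without IANX 3 or any 1 Sham sample (0.0508 to 0.0757).

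Ligands of integrins other than laminin and collagen IV rose in 13 of 18 tested genes and fell in 2. That is 72.2% and 11.1%, against 17.8% and 16.6% of all tested genes. Postn, the periostin of healing connective tissue and periodontium, was at 511, 1030.0 and 951 CPM in IANX 1 to 3, against 68.6, 33.8 and 72.8 CPM in Sham 1 to 3 (log2 fold change 3.83, edgeR adjusted p = 0.00109). Tnc, the tenascin-C that integrin alpha9 binds, was at 843, 413 and 316 CPM in IANX 1 to 3, against 44.4, 25.0 and 65.4 CPM in Sham 1 to 3 (log2 fold change 3.54, edgeR adjusted p = 0.00278). Thbs1 was at 89.5, 68.5 and 57.5 CPM across the IANX samples, against 13.5, 7.33 and 8.64 CPM across the Sham samples (log2 fold change 2.87, edgeR adjusted p = 0.000865), and Tgfb2, whose latent form differs from those of Tgfb1 and Tgfb3 in lacking the integrin-binding RGD peptide, was at 82.8, 18.1 and 71.4 CPM across the IANX samples, against 9.11, 4.66 and 8.86 CPM across the Sham samples (log2 fold change 2.92, edgeR adjusted p = 0.0089). Fn1, the fibronectin that alpha5beta1 binds, was at 602, 863 and 503 CPM across the IANX samples, against 411, 245 and 232 CPM across the Sham samples (log2 fold change 1.15, edgeR adjusted p = 0.0256). Vtn, the vitronectin, went the other way, at 7.36, 22.1 and 10.6 CPM across the IANX samples, against 43.7, 47.8 and 36.4 CPM across the Sham samples (log2 fold change -1.67, edgeR adjusted p = 0.016). In Postn, Tnc and Thbs1 all 3 IANX samples, IANX 2 included, were at least 4.25 times the highest Sham value. Tgfb2 lost its call without Sham 2 (edgeR adjusted p = 0.0516), Fn1 without Sham 2 or Sham 3 (0.117 and 0.113) and Vtn without IANX 3, Sham 1 or Sham 2 (0.0568, 0.0543 and 0.0699). Fn1, Vtn, Lims1, Fermt2 and Fermt3 were named after their values were seen.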
